A study of Mus musculus with 8 samples.

Results

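Metalloproteinases, serpins and the inhibitors of both were followed in mouse kidney after cisplatin. The genes were taken by name and annotation alone: protein-coding genes named as matrix metalloproteinases (Mmp), ADAM, ADAMTS or ADAMTSL proteins, meprins (Mep1a, Mep1b), tissue inhibitors of metalloproteinases (Timp), serpins or Reck, in the lines of the deposited count table that hold 8 counts. There were 75 of them among the 35880 genes so read, 42 proteases and their kin and 33 inhibitors. Another 72 protein-coding genes with such names stand in lines with 10 values for 8 named libraries and were not analysed here, among them Mmp2, Mmp7, Mmp14, Adam10, Adamts1, Reck and Serping1. The groups were 4 kidneys of wild-type mice given saline (controls, numbered 1, 2, 3 and 5) and 4 of wild-type mice given cisplatin, a platinum drug that injures the renal tubule (numbered 1, 3, 4 and 6). Per the study's methods the animals were male C57/BL6J mice, cisplatin was injected intraperitoneally at 23 mg/kg, and kidneys were taken at 72 h.

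The metalloproteinases are zinc enzymes that cut collagens, proteoglycans and proteins at the cell surface. MMPs and ADAMTS proteins are secreted or tethered to the membrane and made as inactive precursors, ADAMs shed membrane proteins such as growth factors and cytokines, and meprins are abundant in the brush border of the proximal tubule. TIMPs block the catalytic zinc of MMPs and of some ADAMs, whereas most serpins trap serine proteases, such as those of clotting, fibrinolysis and inflammation, and a few have lost inhibition and act as carriers or chaperones.

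Total counts ran from 10953338 to 16701599 per library over the lines used, so that 3 counts equalled 0.136 to 0.266 CPM (TMM-scaled counts relative to the library total), a floor that covers counting error only. The second principal component held 16.0% of the variance and set control 5 and cisplatin 4 and 6 apart from the other 5 libraries. Cisplatin 1 and 3 also had at most 3 counts of Eif2s3y or Kdm5d, which are Y-linked, where each other library had 274 to 1333, against the stated sex. Results are therefore also given for these libraries apart. All 7 proximal tubule markers tested fell after cisplatin, and their summed level was 46600 to 58500 CPM in the controls and 890, 618, 7010 and 12200 CPM in cisplatin 1, 3, 4 and 6, most of it Kap in cisplatin 1, 4 and 6 (346, 389, 793 and 1200 CPM without Kap). Markers of fibroblasts and mural cells summed to 53.5 to 180 CPM in the controls and 221 to 1100 CPM after cisplatin. Of the 3 tested, the collagen genes Col1a1 and Col1a2 rose and Lum was not called, with Pdgfra, Pdgfrb, Dcn and Acta2 not analysed here. Those of neutrophils summed to 4.07 to 5.82 and 13.4 to 25 CPM (4 of 5 rose, with Ly6g not analysed here). Of the other marker lists, none of the podocyte (2), endothelial (3) or macrophage (2) genes tested was called, 1 of 5 genes of the thick ascending limb and distal nephron rose and 3 fell, and 1 of 4 lymphocyte genes rose and 2 fell.

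Of the 75 genes, 42 passed the filter on low counts, and 15 of these rose and 6 fell after cisplatin, 50% in all, against 34.9% of all 9141 genes tested (19.2% up, 15.7% down). A gene was called at an adjusted p under 0.05 in the quasi-likelihood test of edgeR (Benjamini-Hochberg adjusted) and a log2 fold change of at least 1 in size. Adam15 and Serpinc1 passed the adjusted p with a smaller change, as did 14.2% of all genes, and 19 did not pass the adjusted p. Of these 19, Adamts12 (1.53), Serpina1c (-1.80) and Mmp25 (-1.08) had a log2 fold change of at least 1 in size. The cisplatin libraries lay wholly above the controls in 13 of the 42 and wholly below in 8, beside 23.7% and 22.5% of all genes (46.3% together). The called genes Adam23 and Adamts8 overlapped between the groups. In bulk tissue, fewer cells of a type and less RNA per cell cannot be told apart.

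Among proteases and their kin, 25 were tested, and 7 rose and 3 fell, a call share of 40.0%. Among inhibitors, 17 were tested, and 8 rose and 3 fell, a share of 64.7%. Log2 fold changes had a median of 0.19 over the proteases, 0.40 over the inhibitors and 0.08 over all genes tested. Timp1, Timp4, Serpina7, Serpina3m and Mmp10 passed the filter through the cisplatin libraries alone. Mmp3, Mmp19 and Serpina3f had 4 cisplatin libraries and 1 control above its cutoff, and Adam23, Adamts8 and Mmp9 had 4 and 2. Mmp13 had 4 controls and 1 cisplatin library above it, and Serpina1c 4 and 2. The filter thus favoured genes that differ, and these shares carry that choice. The plot of every tested gene by library shows the range of levels, and the plot of fold changes shows both directions in both classes.

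**Figure D1:**
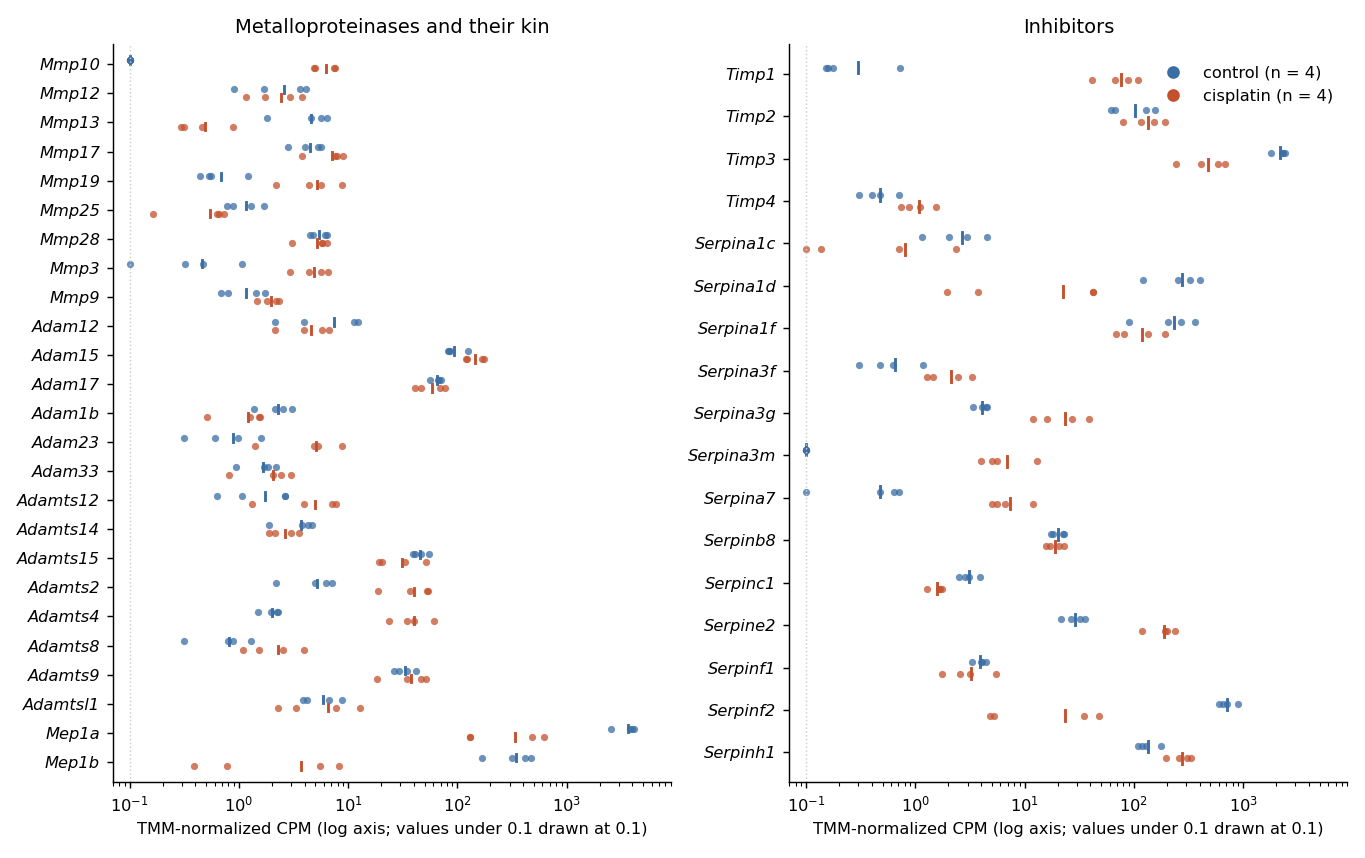
TMM-normalized CPM (log axis) of the 42 tested genes in 4 control (blue) and 4 cisplatin (red) libraries, with points for libraries and bars for group means; values under 0.1 are drawn at 0.1. Mep1a lies at 2550 to 4170 CPM in the controls and 129 to 616 CPM after cisplatin, and Timp1 at 0.152 to 0.718 and 41.0 to 109 CPM.

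**Figure D2:**
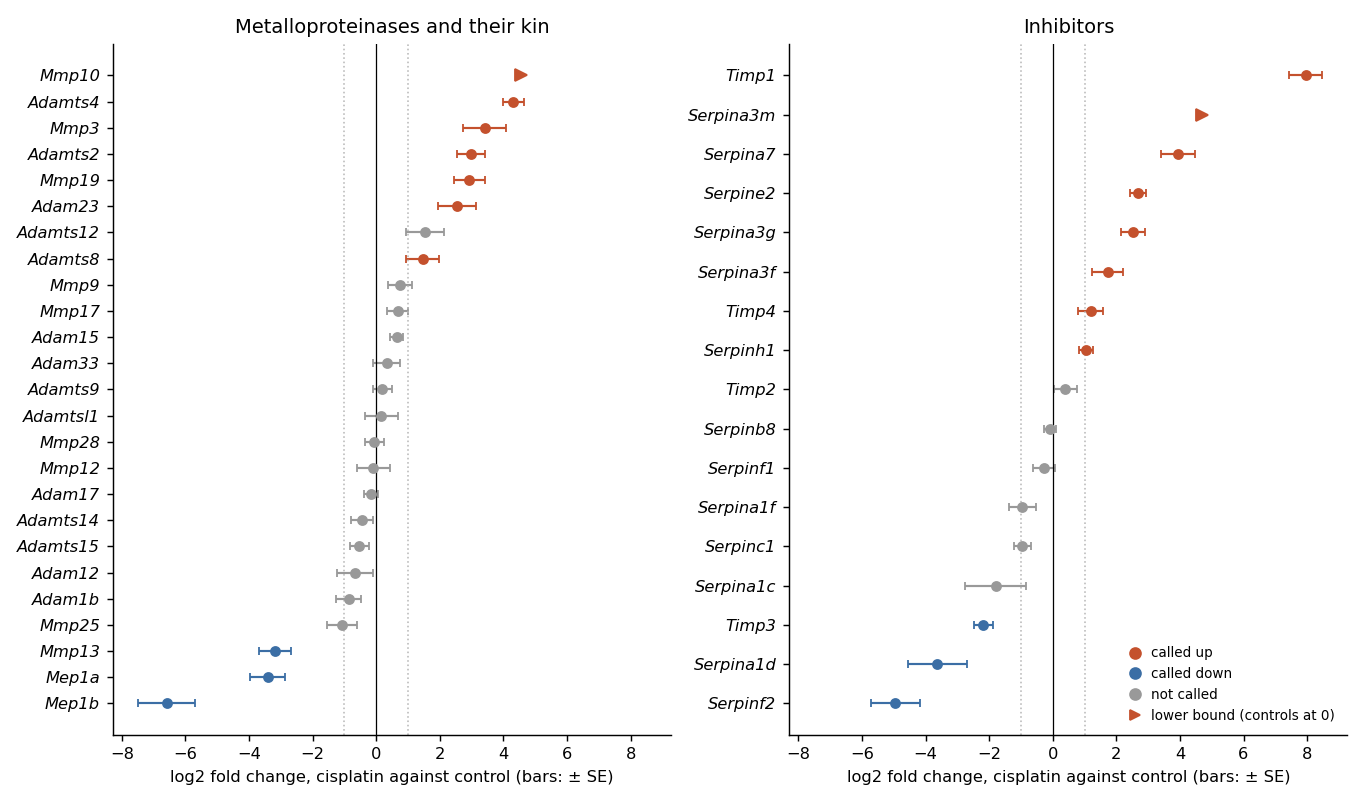
Log2 fold change of cisplatin against control (x axis, bars: SE) for 25 proteases and kin (left) and 17 inhibitors (right), coloured by call, with dotted lines at a change of 1. Triangles are lower bounds for Mmp10 and Serpina3m, whose controls hold 0 counts; the values run from -6.59 for Mep1b to 7.95 for Timp1.

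The MMP genes of chromosome 9 moved in different directions although they lie side by side. Mmp13, Mmp12, Mmp1b, Mmp3, Mmp10 and Mmp8 stand within 296.0 kb (chr9:7272514-7568485, GRCm38). Mmp3 and Mmp10 rose, Mmp13 fell, Mmp12 was not called, Mmp8 was too low to be tested, and Mmp1b held 0 counts in every library. The 120 bases before the start site of each are shown because 5 of the 6, all but Mmp8, hold a binding motif for AP-1, the Fos and Jun transcription factors, near a start, while their changes differ in direction. They are RefSeq sequences of GRCm38.p6, 5′ to 3′ on the strand of the gene, and the capitals mark TGANTCA, searched on both strands (it reads the same on either). Mmp13 is at chr9:7272394-7272513 (+), Mmp12 at chr9:7347254-7347373 (+), Mmp1b at chr9:7388027-7388146 (-), Mmp3 at chr9:7445702-7445821 (+), Mmp10 at chr9:7502222-7502341 (+) and Mmp8 at chr9:7558309-7558428 (+).
Mmp13: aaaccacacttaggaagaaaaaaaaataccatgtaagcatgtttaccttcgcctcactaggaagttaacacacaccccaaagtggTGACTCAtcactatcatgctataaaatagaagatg
Mmp12: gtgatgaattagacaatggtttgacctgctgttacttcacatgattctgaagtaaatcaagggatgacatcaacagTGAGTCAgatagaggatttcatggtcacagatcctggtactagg
Mmp1b: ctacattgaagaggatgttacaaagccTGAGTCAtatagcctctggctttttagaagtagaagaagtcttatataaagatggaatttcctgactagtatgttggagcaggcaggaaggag
Mmp3: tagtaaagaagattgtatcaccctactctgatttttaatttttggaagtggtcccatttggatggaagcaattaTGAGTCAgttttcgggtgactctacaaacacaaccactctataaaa
Mmp10: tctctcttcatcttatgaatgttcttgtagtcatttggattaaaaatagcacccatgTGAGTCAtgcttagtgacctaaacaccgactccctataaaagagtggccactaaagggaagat
Mmp8: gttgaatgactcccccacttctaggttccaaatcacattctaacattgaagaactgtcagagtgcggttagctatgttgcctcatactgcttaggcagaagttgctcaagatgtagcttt

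The motif began 35 bases upstream of the start in Mmp13, 44 in Mmp12 (in 1 of its 2 RefSeq windows), 93 in Mmp1b, 46 in Mmp3 and 63 in Mmp10, and was not found in the Mmp8 window. The windows searched ran from 250 bases before to 50 after each start, and 7.81% of all 32851 such windows held the motif. By gene, 13 of the 57 genes of these families with a window held it, beside 8.97% of all 27025 genes with one. These 13 are not independent. They include the 5 MMPs of this stretch and, with windows that are near copies, Adam20 and Adam25, and Serpina1c and Serpina1d. A match is a description of these letters and was not tested for binding. Among the genes with a window, the motif was found in 2 of 11 that rose and 2 of 5 that fell.

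Mmp10 (stromelysin-2, which cuts proteoglycans and activates other MMPs) held 0 counts in all 4 controls and 4.82, 4.95, 7.47 and 7.61 CPM in cisplatin 1, 3, 4 and 6. Against 3 counts per control library this was at least 23.4-fold higher, with an adjusted p of 5.74e-05 in edgeR's quasi-likelihood test. All 4 cisplatin libraries were thus above the controls. Its neighbour Mmp3 (stromelysin-1) had 1.06, 0.319, 0 and 0.472 CPM in controls 1, 2, 3 and 5 and 6.59, 4.4, 2.93 and 5.63 CPM after cisplatin, also without overlap. Its log2 fold change was 3.41 (SE 0.68, edgeR adjusted p = 0.00257), 4.18 without control 1.

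Mmp13 (collagenase-3, which cuts fibrillar collagen) went the other way, with 4.52, 6.46, 5.61 and 1.81 CPM in the controls and 0.455, 0.880, 0.293 and 0.317 CPM after cisplatin. The highest cisplatin library was below the lowest control, and Mmp13 fell by 3.19 on the log2 scale (SE 0.50, edgeR adjusted p = 0.000677). Mmp12 (macrophage elastase) overlapped fully, at 1.68, 4.15, 0.910 and 3.62 CPM against 2.96, 3.74, 1.17 and 1.74 CPM, with a log2 fold change of -0.10 (SE 0.52, edgeR adjusted p = 0.896). Mmp12 shares 157 bp of exon with Mmp1b on the opposite strand. Mmp8 (neutrophil collagenase) had 2, 0, 2 and 5 counts in the controls and 16, 35, 6 and 32 counts after cisplatin, above the controls in every cisplatin library. It was tested when the filter was left out, with a log2 fold change of 2.90 (SE 0.75, edgeR adjusted p = 0.00522). In CPM, Mmp8 stood at 0.728, 1.92, 0.439 and 2.54 in cisplatin 1, 3, 4 and 6. In the same 4 libraries the summed neutrophil markers were 13.4, 17.8, 20.2 and 25 CPM. Their part in the Mmp8 result was not tested.

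**Figure D3:**
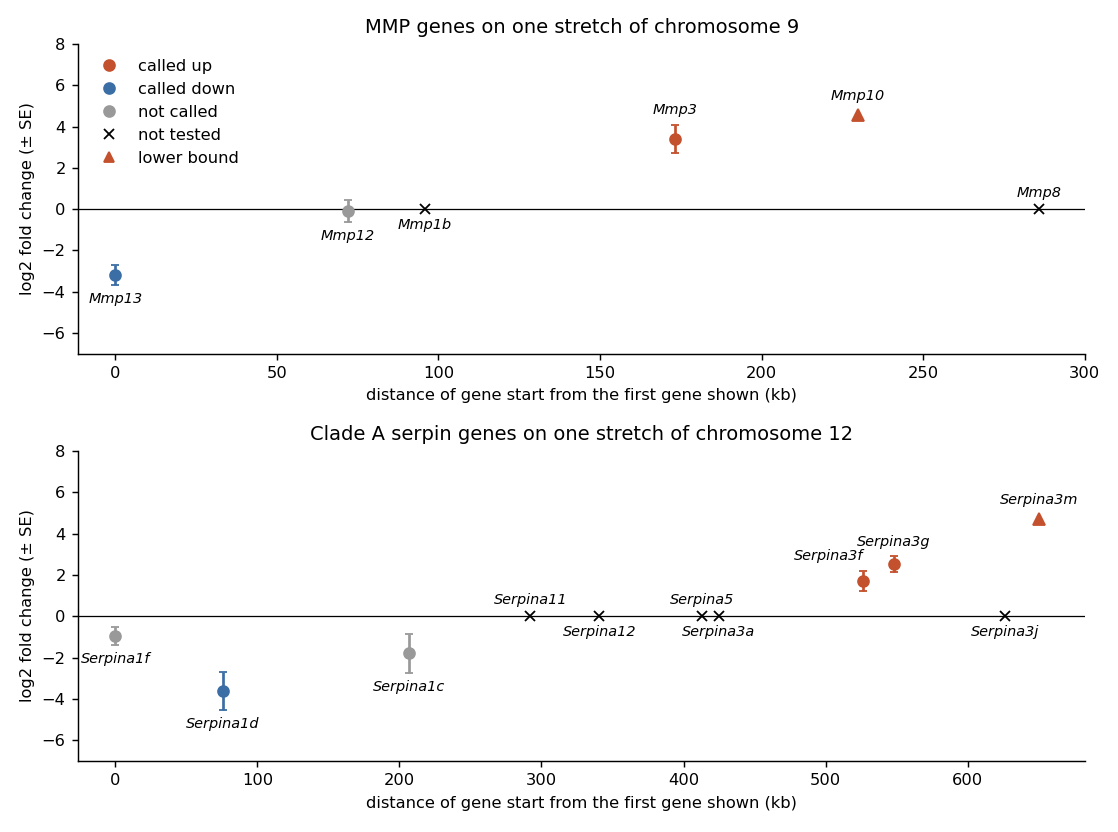
Log2 fold change (y axis, bars: SE) of the genes of a chromosome 9 stretch of MMPs (top) and a chromosome 12 stretch of clade A serpins (bottom) against the distance of the gene start from the first gene shown in kb, with lower bounds as triangles and untested genes as crosses at 0. Mmp13 at -3.19 and Mmp3 at 3.41 lie 173.3 kb apart, and Serpina1d at -3.63 and Serpina3g at 2.53 stand at 75.6 and 548.2 kb.

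Of the 5 other MMPs tested, Mmp19 alone was called. Mmp19 (chr10:128790910-128800824), which cuts basement membrane proteins, had 0.443, 1.2, 0.531 and 0.550 CPM in the controls and 8.78, 5.61, 2.20 and 4.36 CPM after cisplatin, a log2 fold change of 2.93 (SE 0.50, edgeR adjusted p = 0.00109) with no overlap. It shares 789 bp of exon with Tmem198b on the opposite strand. Mmp9 (gelatinase B, which cuts basement membrane collagen and is carried by neutrophils) had 1.42, 0.798, 0.683 and 1.73 CPM against 1.46, 2.31, 2.20 and 1.82 CPM. The groups overlapped between control 5 and cisplatin 1, and the log2 fold change of 0.75 (SE 0.37, edgeR adjusted p = 0.122) did not pass. Mmp25, a membrane-anchored MMP of leukocytes, lay below the controls in every cisplatin library and did not pass either, at -1.08 (edgeR adjusted p = 0.0848). Mmp17 and Mmp28 had log2 fold changes of 0.67 and -0.06, neither called.

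Among the proteases tested, the meprins had the highest levels per gene length in the controls, and both fell, Mep1b the furthest. Meprin subunits alpha and beta form brush border enzymes that cut extracellular matrix and peptides. Mep1a (chr17:43474324-43502812) had 3790, 4170, 2550 and 3990 CPM in the controls and 130, 129, 616 and 484 CPM in cisplatin 1, 3, 4 and 6, and fell by 3.42 on the log2 scale (SE 0.55, edgeR adjusted p = 0.000727). Mep1b had 314, 418, 169 and 476 CPM in the controls and 0.773, 0.385, 5.49 and 8.17 CPM after cisplatin, and fell by 6.59 (SE 0.90, edgeR adjusted p = 0.000296) (log2 fold change of -7.35 without cisplatin 6). No library overlapped for either subunit. Cisplatin 1 and 3 were the lowest for both. Of the 7 proximal tubule markers, 5 were also lower in both of these libraries than in cisplatin 4 and 6, whereas Lrp2 (141, 190, 137 and 189 CPM) and Slc5a12 (4.68, 11.5, 3.88 and 5.87 CPM) overlapped. The part of the marker loss in the meprin result was not tested.

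Of 18 ADAM genes, 6 were tested and 1 was called. Adam23, which has no active protease site and binds integrins, had 0.974, 1.6, 0.607 and 0.315 CPM in the controls and 8.73, 5.33, 1.39 and 4.84 CPM after cisplatin. Cisplatin 4 lay below control 2, and the gene rose by a log2 fold change of 2.54 (SE 0.61, edgeR adjusted p = 0.00692). Adam17, the sheddase that releases TNF and ligands of the EGF receptor, had 66.5, 68.2, 70.1 and 56.1 CPM against 77.6, 69.3, 40.8 and 46.5 CPM, with a log2 fold change of -0.16 (SE 0.22, edgeR adjusted p = 0.58). Within the cisplatin group its level was higher in libraries 1 and 3 than in 4 and 6. Adam15, which binds integrins, had 81.1 to 125 CPM in the controls and 120 to 176 CPM after cisplatin, with a log2 fold change of 0.64 (SE 0.20, edgeR adjusted p = 0.0237). Adam12, Adam33 and Adam1b had -0.67, 0.33 and -0.87, and did not pass. The other 12 ADAM genes held at most 4 counts summed over the 8 libraries.

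The ADAMTS genes that were called all rose. Adamts4 (aggrecanase-1, which cuts aggrecan and versican; chr1:171250421-171260637) had 2.30, 2.23, 1.97 and 1.49 CPM in the controls and 40.2, 34.9, 23.4 and 60.6 CPM after cisplatin. Every cisplatin library stood above the controls, and the log2 fold change was 4.31 (SE 0.33, edgeR adjusted p = 1.05e-05). Adamts2, which removes the amino-terminal propeptide of fibrillar procollagens, had 6.29, 7.10, 2.20 and 4.95 CPM against 53.7, 37.0, 18.6 and 52.1 CPM, a rise of 2.98 (SE 0.43, edgeR adjusted p = 0.000382) without overlap. Adamts14, which does the same cut, had a log2 fold change of -0.45 and was not called. Col1a1, which encodes a substrate of both, rose from 40.2 ± 26.2 to 333 ± 208 CPM (SD, n = 4), with a log2 fold change of 3.05 (edgeR adjusted p = 0.0037). It is itself 1 of the 3 fibroblast and mural markers tested. Of the others, Col1a2 rose (2.28) and Lum was not called (0.83, edgeR adjusted p = 0.43). The part of these markers in the Adamts2 result was not tested.

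Adamts8, a proteoglycan-cutting enzyme, had 0.797, 0.877, 1.29 and 0.315 CPM in the controls and 2.55, 1.10, 1.54 and 3.96 CPM after cisplatin, overlapping between control 3 and cisplatin 3. Its rise of 1.46 on the log2 scale (SE 0.51, edgeR adjusted p = 0.0387) was no longer called without control 1 (1.45), control 2 (1.49), control 5 (1.19), cisplatin 1 (1.39) or cisplatin 6 (1.07). Adamts15 lies next to it on the opposite strand, within 64.7 kb for the pair, and had 38.9 to 54.8 CPM in the controls and 19.3 to 51.5 CPM after cisplatin, with a log2 fold change of -0.54 (not called). Adamts12 had 1.53 (SE 0.60, edgeR adjusted p = 0.0596), and was called without cisplatin 4 (1.84) and by DESeq2 (1.47, adjusted p = 0.0312). Adamts9 and Adamtsl1, an ADAMTS-like protein without a protease domain, had 0.19 and 0.16. Adamts13, which cuts von Willebrand factor, was too low for the filter, with 4, 2, 4 and 6 counts in the controls and 17, 9, 35 and 24 counts after cisplatin.

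Of the TIMPs, Timp3 fell and Timp1 and Timp4 rose. Timp3, the TIMP bound to extracellular matrix and an inhibitor of ADAM17 and of aggrecanases (chr10:86300372-86349506), had 2390, 1810, 2290 and 2250 CPM in the controls and 588, 679, 241 and 415 CPM after cisplatin. No library overlapped, and Timp3 fell by 2.18 on the log2 scale (SE 0.31, edgeR adjusted p = 0.000365). It shares 1733 bp of exon with Syn3 on the opposite strand. Timp1, a soluble inhibitor of most MMPs (chrX:20870166-20874735), had 2, 9, 2 and 2 counts in the controls and 1944, 1228, 560 and 1378 counts after cisplatin. Its log2 fold change was 7.95 (SE 0.52, edgeR adjusted p = 4.47e-06), and 8.82 without control 2, whose 9 counts are the highest of the controls.

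Timp2, which also takes part in the activation of pro-MMP2, had 128, 156, 67.3 and 61.4 CPM against 194, 154, 78.6 and 117 CPM. The groups overlapped, and the log2 fold change of 0.40 (SE 0.36, edgeR adjusted p = 0.382) did not pass. Timp4 had 0.708, 0.399, 0.303 and 0.472 CPM against 1.55, 0.880, 0.732 and 1.11 CPM. Its rise of 1.19 (SE 0.40, edgeR adjusted p = 0.0317) was no longer called without control 2 (1.12), control 3 (1.03), control 5 (1.2), cisplatin 1 (0.93) or cisplatin 6 (1.18), nor by DESeq2 (adjusted p = 0.0644).

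Set on one scale per gene length (CPM per kb), the 4 TIMPs summed to 327, 263, 298 and 292 in the controls and 222, 199, 96.1 and 204 after cisplatin. Timp3 made up 89.9%, 84.4%, 94.1% and 94.5% of that sum in the controls and 32.5%, 41.9%, 30.8% and 24.9% after cisplatin. Timp1 made up 0.0573% to 0.307% in the controls and 44.9%, 38.2%, 48.0% and 60.3% after cisplatin, the largest share in each of these 4 libraries except cisplatin 3, where Timp3 was larger. Timp2 held 5.40% to 15.2% and 14.7% to 22.5%. On the CPM scale, which does not correct for the longer Timp3 transcript, Timp3 held 92.0% to 97.3% in the controls and 64.6% to 75.3% after cisplatin, and Timp1 7.49% to 17.0% after cisplatin.

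**Figure D4:**
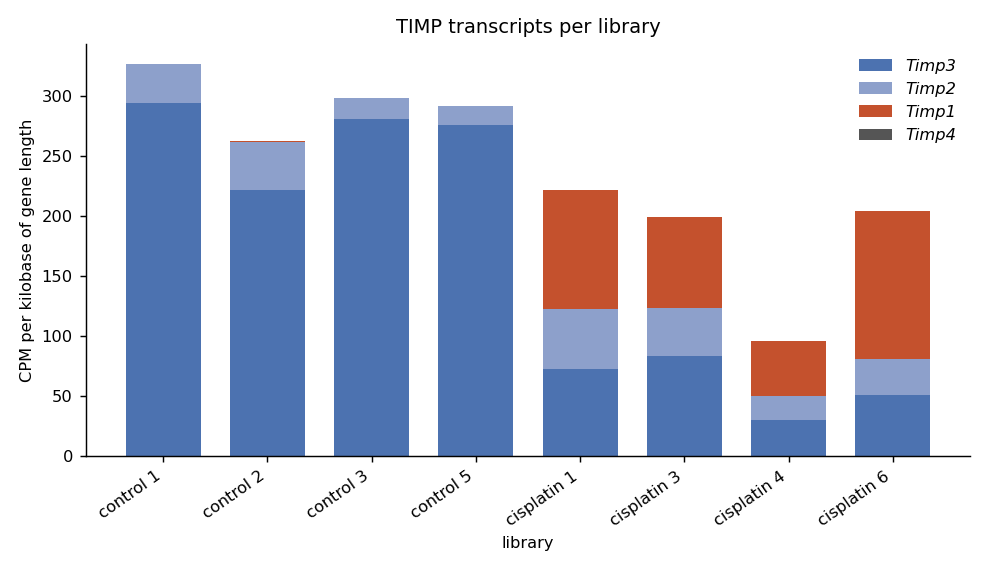
Levels of the 4 TIMP genes, stacked, in CPM per kb of gene length (y axis, from 0) in each of the 8 libraries (x axis); Timp4 is too low to be seen. Timp3 fills 84.4% to 94.5% of the bar in the controls and 24.9% to 41.9% after cisplatin, where Timp1 fills 38.2% to 60.3%.

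The 11 MMP genes read here summed to 6.01, 6.52, 4.78 and 4.12 CPM per kb in the controls and 13.3, 12.1, 9.22 and 13.6 after cisplatin. The ratio of the TIMP sum to this MMP sum was 54.3, 40.4, 62.5 and 70.8 in the controls and 16.7, 16.5, 10.4 and 15.1 after cisplatin, per kb. The groups did not overlap in this ratio, which describes RNA of the genes read here and leaves out Mmp2, Mmp7 and Mmp14. On the CPM scale the mean ratio was 114 ± 27.9 in the controls and 19.1 ± 4 after cisplatin (SD, n = 4).

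Clade A serpins include genes that rose and a gene that fell on one stretch of chromosome 12. Within 706.2 kb (chr12:103688044-104394257) the count table gives 11 of them, 6 of which were tested. Of 5 Serpina3 genes, mouse relatives of antichymotrypsin, the 3 tested rose, and Serpina3a and Serpina3j held at most 2 counts in all. Of 3 Serpina1 genes, which include those for alpha-1 antitrypsin, 1 fell and 2 were not called. Other genes of both families were not analysed here, and the contrast between the families was not tested. Serpina3m held 0 counts in the controls and 5.55, 4.01, 13.1 and 5.00 CPM after cisplatin, at least 26.0-fold higher (edgeR adjusted p = 0.000267). Serpina3g, which inhibits cysteine cathepsins in leukocytes, had 4.07, 4.39, 3.34 and 4.56 CPM in the controls and 38.8, 27.3, 12 and 15.9 CPM after cisplatin. It rose by a log2 fold change of 2.53 (SE 0.37, edgeR adjusted p = 0.000417) with no overlap. Serpina3f had 0.620, 0.479, 0.303 and 1.18 CPM against 3.32, 2.47, 1.46 and 1.27 CPM, a rise of 1.73 (SE 0.49, edgeR adjusted p = 0.0149) with control 5 just below cisplatin 6.

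Serpina1d had 254, 403, 121 and 327 CPM in the controls and 1.96, 3.74, 42.5 and 41.8 CPM after cisplatin, and fell by 3.63 on the log2 scale (SE 0.92, edgeR adjusted p = 0.00921). The cisplatin libraries were all below the controls, with 1 and 3 the lowest. Serpina1c and Serpina1f had log2 fold changes of -1.80 (edgeR adjusted p = 0.143) and -0.96 (edgeR adjusted p = 0.0932). Without cisplatin 4 both were called, at -3.37 and -1.30, and Serpina1f also without control 3, at -1.23. The Serpina1 and Serpina3 genes are close copies, so how reads were shared among them is uncertain. Serpina7 (thyroxine-binding globulin, a hormone carrier), the other clade A gene tested, lies on chromosome X and had 0.708, 0.638, 0.0758 and 0.472 CPM in the controls and 5.05, 5.55, 11.9 and 6.58 CPM after cisplatin. It rose by 3.93 on the log2 scale (SE 0.54, edgeR adjusted p = 0.000292), with no overlap. Of 3 plasma protein genes of the liver tested, Fgb rose, from 2.22 to 65.5 CPM, and Alb fell, from 9.64 to 1.95 CPM (means, n = 4). The other, Apoa1, was not called (1.16, edgeR adjusted p = 0.152), and Ttr was not analysed here.

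Among the other serpins, an inhibitor of plasmin fell and an inhibitor of the plasminogen activators rose. Serpinf2 (alpha-2 antiplasmin, the main inhibitor of plasmin; chr11:75431732-75439591) had 716, 598, 653 and 904 CPM in the controls and 4.78, 5.22, 34.8 and 47.9 CPM after cisplatin. It fell by 4.96 on the log2 scale (SE 0.77, edgeR adjusted p = 0.000607) (log2 fold change of -5.60 without cisplatin 6), and again cisplatin 1 and 3 were lowest. Serpinf1 (pigment epithelium-derived factor, which does not inhibit proteases) lies beside it, within 29.8 kb for the pair, and had 3.28, 4.07, 4.4 and 4.01 CPM against 5.41, 2.58, 1.76 and 3.17 CPM, a log2 fold change of -0.28 (edgeR adjusted p = 0.546). Serpine2 (protease nexin-1, an inhibitor of thrombin and of both plasminogen activators) had 32.4, 35.9, 21.4 and 26.4 CPM in the controls and 201, 239, 119 and 191 CPM after cisplatin. It rose by 2.69 (SE 0.25, edgeR adjusted p = 3.3e-05) with no overlap.

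Serpinh1 (HSP47, a collagen chaperone of the endoplasmic reticulum) had 129, 109, 119 and 177 CPM against 309, 336, 195 and 260 CPM. It rose by 1.04 (SE 0.22, edgeR adjusted p = 0.00334) with no overlap, and fell short of a change of 1 without control 2 (0.96), control 3 (0.99), cisplatin 1 (0.98) or cisplatin 3 (0.91). Serpinc1 (antithrombin) was below the controls in every cisplatin library, at 2.52 to 3.87 against 1.27 to 1.76 CPM. Its log2 fold change of -0.96 (SE 0.27, edgeR adjusted p = 0.0157) fell short of the call, which it reached without control 5 (-1.05) or cisplatin 4 (-1.02) and with DESeq2 (-1.01, adjusted p = 0.00443). Of 11 clade B serpins, the intracellular branch, Serpinb8 alone was tested, with 17.3 to 22.8 CPM in the controls and 15.6 to 22.9 CPM after cisplatin.

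On the level per gene length, Mep1a was the most abundant of the family in the controls, at a mean of 1050 CPM per kb, without overlap with the next, Serpinf2 (309). Timp3 (268), Serpina1d (198) and Mep1b (151) followed, each overlapping its neighbour. After cisplatin the order was Serpinh1 (113), Mep1a (98.4), Timp1 (86.2), Timp3 (59.1), Serpina1f (37.4) and Timp2 (34.9), and each overlapped the next, so that this order is not fixed by 4 libraries.

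The partners of these genes moved in both directions, as did all genes tested (19.2% up, 15.7% down). The lists of partners are short, and whether their shares differ from those of all genes was not tested. Of 12 serine proteases tested that serpins can inhibit, 3 rose and 4 fell. Plat, tissue plasminogen activator and a target of Serpine2, had 105, 98.4, 118 and 80.4 CPM in the controls and 735, 1150, 454 and 913 CPM after cisplatin, with a log2 fold change of 3.02 (SE 0.29, edgeR adjusted p = 3.79e-05). Plau, urokinase, had a mean of 930 ± 210 CPM against 818 ± 110 CPM (SD, n = 4), and its log2 fold change of -0.19 (edgeR adjusted p = 0.483) did not pass. Masp2 (1.46) and Hgfac (1.02) rose, and Proc (-2.43), the membrane proteases Prss8 (-2.07) and Hpn (-1.98), and Klkb1 (-1.52) fell, as log2 fold changes. Masp2 overlapped between the groups, with control 5 at 2.04 and cisplatin 1 at 1.73 CPM.

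Of 10 activators and receptors tested, 4 rose and 1 fell. Furin (-0.76), Tspan5 (-0.75) and Sdc4 (0.86) passed the adjusted p with a smaller log2 fold change and no overlap. Plaur, the urokinase receptor, had 7.44, 9.01, 7.58 and 6.84 CPM in the controls and 110, 126, 195 and 266 CPM after cisplatin, with a log2 fold change of 4.49 (SE 0.31, edgeR adjusted p = 5.91e-06). Rhbdf2, the iRhom that carries ADAM17 to the surface, rose from 30.6 ± 3.10 to 151 ± 24.2 CPM (SD, n = 4; log2 fold change 2.31, edgeR adjusted p = 7.58e-06), beside an Adam17 that was not called. Cd44 (2.79) and Thbs1 (1.56) also rose, and the proprotein convertase Pcsk5 fell (-2.31). Of 8 other metallopeptidases and their inhibitors, 2 rose, Bmp1 (1.81), which trims the carboxy-terminal propeptide of procollagen, and Spock2 (1.56), and 2 fell, among them Tll1 (-1.22). Tll1 overlapped between the groups, with control 5 at 1.65 and cisplatin 1 at 2.27 CPM, and passed narrowly (edgeR adjusted p = 0.0499).

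Within the cisplatin group, libraries 1 and 3 were both above 4 and 6 in 21 of the 42 tested genes and both below in 10, where 36.2% and 36.7% of all genes were so ordered. Of the 6 genes that fell, Mep1a, Mep1b, Serpinf2 and Serpina1d were lower in libraries 1 and 3, as were 5 of the 7 proximal tubule markers but not Lrp2 or Slc5a12. Against cisplatin 4 and 6 alone, where 42.0% of all genes were called, 18 of the 21 called genes were called in the same direction. Those lost were Serpinh1 (0.78), Serpina3f (1.09) and Timp4 (0.97). Both cisplatin libraries of this fit lie with control 5 on the second principal component, apart from controls 1, 2 and 3. Treatment and that grouping therefore cannot be fully told apart in it. In the first library set alone (controls 1, 2 and 3 against cisplatin 1 and 3), where 33.6% of all genes were called, 20 of the 21 were, without Adamts8 (0.83). In that set the near absence of Y-linked counts falls on the cisplatin libraries and on no control, so that this difference and the treatment cannot be told apart there. With the library set as a covariate, where 35.9% were called, all 21 were. This covariate keeps cisplatin 1 and 3 in a set with controls 1, 2 and 3, so it does not take the Y-linked difference out of the contrast. The fit of all 8 libraries also holds that difference. The sizes of the changes differed between the fits. In the first set and against cisplatin 4 and 6, the log2 fold change was -6.59 and -2.71 for Serpina1d, -7.09 and -4.11 for Serpinf2, -9.02 and -5.65 for Mep1b, and -4.81 and -2.71 for Mep1a. It was -1.82 and -2.73 for Timp3 and -3.11 and -3.87 for Mmp13, the other way round. Among genes that rose, it was 3.01 and 1.78 for Serpina3g, 2.58 and 1.09 for Serpina3f, 2.67 and 1.82 for Adam23, and 3.24 and 2.25 for Mmp19. These 3 fits were chosen after seeing the data.

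**Figure D5:**
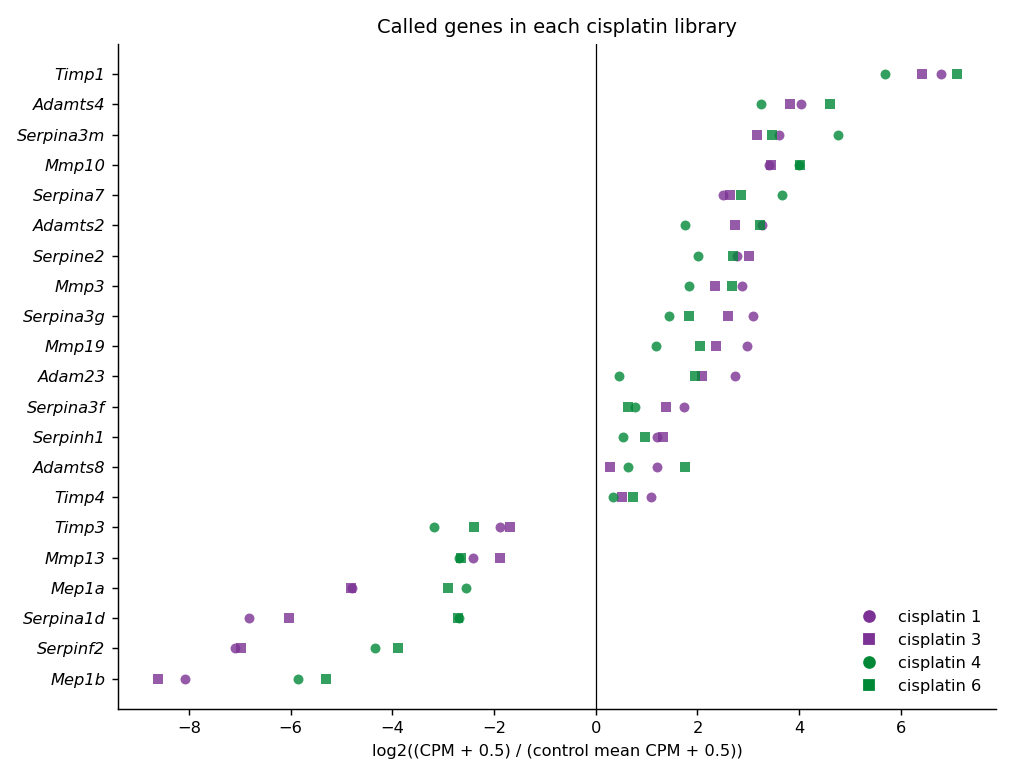
Each called gene in cisplatin 1 and 3 (purple) and cisplatin 4 and 6 (green), as log2 of CPM + 0.5 relative to the control mean + 0.5 (x axis). Mep1b lies lower in cisplatin 1 and 3, at 0.773 and 0.385 CPM, than in 4 and 6, at 5.49 and 8.17 CPM, and Timp3 lies higher there, at 588 and 679 against 241 and 415 CPM.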

How the data were processed

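RNA from 8 mouse kidneys was sequenced in bulk. Per the submitters' processing notes and the study's methods, the authors trimmed reads with fastp and aligned them to GRCm38 with HISAT2, and they deposited raw counts per gene, not normalized. The counting tool, annotation release and strand setting are not given in the sources used here, so overlapping genes cannot be told apart by strand, and the library kit is named differently in the methods and the labels. Of 53715 lines, 17835 (33.2%) hold 10 values for 8 named libraries and were left out, and the 2 unnamed columns were used in no step, so totals cover part of each library. Deposited gene lengths (equal to the merged exons of GENCODE M21 in 72 of 75 genes) gave CPM per kb. Positions are as deposited, on GRCm38, and 72 of 75 have the same start, end and strand in GENCODE M21.

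Each library's group came from its label. The analysis ran in edgeR 4.0.16 under R 4.3.3: default expression filter, TMM, quasi-likelihood test, Benjamini-Hochberg adjustment over all 9141 genes. The standard error was the log2 fold change over the square root of F. Where all controls held 0 counts, the fold is a bound against 3 counts at 0.266 CPM. The smallest chi-square per gene between libraries of a group was 15.1, so none was counted as a duplicate. Per the study, mice were assigned at random to the control or the cisplatin group, with 4 in each. How kidneys were drawn from the mice is not stated further, so p-values measure the spread between these samples. The procedure was also run on simulated counts, in which far fewer genes changed than were called here and no library sets were drawn. That run does not bear on either feature of these data. The genes and lists were chosen with earlier results of these data known. Values in every library are given for up to 6 called genes per role with the largest fold change and a mean of at least 1 CPM, and for a set of well-known family members. Mmp8, Adamts13, Mmp12, Mmp25, Rhbdf2, Col1a1, Lrp2, Slc5a12 and Kap were picked once their values had been seen. DESeq2 1.42.0, other scalings and filters, a test of whether the log2 change exceeds 1 in size, each library left out, and a replicate block were the alternatives. Motifs were searched in RefSeq promoter windows of 300 bases. Some genes are not reported here.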

Additional observations from a re-analysis of the deposited data

Results flagged for a closer look

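In each tested gene the 4 libraries of a group were searched for one far from the other 3 by Dixon's criterion, which chance alone meets in about 5% of groups, and 5 of 84 groups met it. Adam15 was at 125 CPM in control 5, with the other controls at 81.1 to 85.6 CPM. Timp1 was at 0.718 CPM in control 2 against 0.152 to 0.177 CPM, a matter of 9 counts against 2. Mmp19 was at 1.2 CPM in control 2 against 0.443 to 0.550 CPM. Serpina3m was at 13.1 CPM in cisplatin 4 against 4.01 to 5.55 CPM, and Mmp25 at 0.165 CPM in cisplatin 3 against 0.634 to 0.728 CPM. No cause was tested for any of them.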

How the results depend on the processing

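Over 19 alternatives, all 21 called genes kept their direction where they were tested. Among single genes, 26 values lost a call, 26 gained one in the same direction, 728 kept their side of the threshold, and 1, given below, turned its direction and gained a call. Scaling by total library size moved the median log2 fold change of all genes by 0.57 and the share of calls that were up from 55.0% to 79.8%, with 3174 genes up and 803 down, and 11 proteases up. A minimum of 10 counts in every library left 25 of the 42 genes, with 1101 genes up over all, 2 proteases up, 1 protease down and 3 inhibitors up. Testing against a log2 fold change of 1 gave 885 genes up, 803 down and 5 inhibitors up. Leaving out 1 library gave 1552 to 1849 genes up and 1337 to 1515 down, 6 to 8 proteases up and 3 down, and 6 to 8 inhibitors up and 3 to 6 down, the 6 without cisplatin 4. Against cisplatin 4 and 6 alone, 5 proteases fell and 5 inhibitors rose. With the library set as a covariate 5 inhibitors fell, and in the first set alone 6. The mean ratio of TIMPs to MMPs was 57.0 (SD 12.9) in the controls and 14.7 (SD 2.93) after cisplatin per kb. Where no construction of the alternative shows it, the cause was not tested.

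Replicate numbers 1 and 3 occur in both groups, and the deviations of those pairs correlated at r = 0.25 and 0.28, but no source says that a number marks a shared animal or day. The replicate block rests on these 4 libraries and called 1710 genes up and 1404 down, and 5 inhibitors down. Mmp12 turned to 1.39 under it (edgeR adjusted p = 0.0158). A list of proteases by their zinc-binding motif was not run, since protein sequences were not used here. A list without proteins known to lack the activity, chosen after seeing the data, gave 39.1% of proteases and 64.3% of inhibitors called.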
